A study of Mus musculus with 9 samples.

Results

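Heat shock proteins and DNAJ proteins are the core of the cell's protein-folding machinery. HSP70 proteins bind unfolded chains, DNAJ (HSP40) proteins deliver clients to HSP70 and start its ATP hydrolysis, and HSP90 takes over clients at a later folding step. Small heat shock proteins hold unfolded proteins without ATP, and the endoplasmic reticulum (ER) and mitochondria have chaperones of their own. In heat or oxidative stress the factor HSF1 induces the cytosolic genes through heat shock elements, while the unfolded protein response induces the ER genes through ER stress elements. The genes described here are the protein-coding rows of the deposited count table whose symbols begin with Hsp90, with Hsp followed by a, b, d, e or h and a digit, or with Dnaj followed by a, b or c and a digit. They are 72 of 52636 genes. By the known location of each protein, 46 were placed in the cytosol or nucleus, 13 in the ER and 8 in mitochondria, and 5 (Hspb11, Dnajc4, Dnajc22, Dnajc25 and Dnajc28) were left without a compartment.

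The data were RNA-seq gene counts and FPKM from mouse kidney, with 3 libraries of NF-κB1 C59A knock-in mice, 3 of NF-κB1 C59S knock-in mice and 3 of wild-type (WT) mice. C59A and C59S replace a cysteine in the DNA-binding part of p50, the product of Nfkb1. The sample labels call C59A activated and C59S inactivated, whereas the design text gives the opposite order for DNA binding, so the libraries are named here by allele alone. Both knock-in lines carry a PGK-neo selection cassette in an intron near the mutation and come from C57BL/6NTac-derived embryonic stem cells. Age, sex and litter are not given in the sources used here, and it is not stated whether each replicate came from its own animal. The p-values therefore cover only the variation among these libraries, which may be technical. A gene count cannot show a point mutation: Nfkb1 had 39.7, 31 and 29.2 CPM (counts scaled to a common library size, per 1e6) in C59A, 39.7, 37.5 and 36.9 in C59S, and 32.2, 33.8 and 36.8 in WT, which checks no label.

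Libraries held 16367403 to 25787659 counts, and the members took 0.495% to 0.868% of them. All 10 kidney tubule and glomerulus markers had reads. Several features moved with genotype. Summed Y-linked CPM was 167 to 175 in C59A, 0 to 2.56 in C59S and 0 to 0.238 in WT. Y-linked genes are carried by males alone, so sex and the C59A genotype cannot be told apart in any comparison with C59A. Mitochondrial genome transcripts took 20.8% to 28.8% of counts in C59A, 20.5% to 40.6% in C59S and 16.4% to 19.6% in WT. Summed adipocyte markers (8 of 8 with reads) were 162 to 274 CPM in C59A, 153 to 1310 in C59S and 27.4 to 63.8 in WT, and endothelial markers (8 of 8) were 336 to 410, 578 to 801 and 210 to 510 CPM in the same order. The library labelled C59S replicate 3 had the highest mitochondrial share and the highest adipocyte, endothelial and smooth muscle sums. In bulk kidney, fewer cells of a type and less RNA per cell cannot be told apart. The part of these features in the results below was not tested.

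Heat shock elements are repeats of GAA in alternating orientation, and their matches are shown because members that carry them are among those described below. RefSeq promoter windows (250 bases before to 50 after a transcript start, GRCm38.p6) were found for 58 of the 72 members. Members without a window were not scanned, among them Hspa8, Hsp90aa1, Hsp90ab1, Dnajc2 and Dnajc22. The 3-unit element, GAANNTTCNNGAA or TTCNNGAANNTTC on the other strand, occurred in 0.603% of 32851 windows of all genes and in windows of 4 members, Dnajb6, Hspd1, Hspe1 and Hsph1. Hspd1 and Hspe1, which encode the mitochondrial chaperonin HSP60 and its lid HSP10, lie head to head and share the same overlapping matches. The lines below run 5′ to 3′ on the strand of each gene, with the match in capitals. Dnajb6 is at chr5:29735844-29735872, Hspe1 at chr1:55088056-55088084, and Hsph1 at chr5:149636280-149636308. The Hsph1 match begins 15 or 36 bases after the transcript start, by the start taken, and those of Dnajb6 and Hspe1 lie before it.
Dnajb6: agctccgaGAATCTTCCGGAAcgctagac
Hspe1: ccgttctaGAACCTTCCGGAAggccccgc
Hsph1: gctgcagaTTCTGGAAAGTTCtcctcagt
The ER stress element, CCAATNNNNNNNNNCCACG or its complement, occurred in 0.119% of the windows and in 3 members, all of the ER group: Hspa5 (chr2:34772020-34772048), Dnajc3 (chr14:118937822-118937850) and Hsp90b1, with 2 matches, of which that at chr10:86705633-86705661 is shown.
Hspa5: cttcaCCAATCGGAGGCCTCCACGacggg
Dnajc3: cacaaCCAATCAGCGCCAACCACGacccg
Hsp90b1: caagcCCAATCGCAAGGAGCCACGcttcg
The shorter 2-unit form, GAANNTTC or TTCNNGAA, is contained in the 3-unit form and occurred in 15.1% of all windows and in 16 members, among them Hspa1a, Hspa1b, Hspb1, Hspb6, Hspb8 and Dnaja1. The 58 members had 75 windows, of which 6 held the 3-unit element, 18 the 2-unit form and 3 the ER stress element. Dnajb1 and Hspa4l had windows but no match to either heat shock form. A match is a description of the letters and not a binding site.

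Of the 72 members, 67 passed the filter on low counts and were tested among 17114 genes. Hspb3 and Dnajc5g had no reads in any library, Dnajc5b had 1 read, and the testis-type genes Dnajb8 and Hspb9 stayed under 1 CPM. Counts were compared with edgeR's quasi-likelihood test, and a gene was called at a Benjamini-Hochberg adjusted p under 0.05 over all tested genes. In C59A against WT, 4 of 67 members were called, all higher, beside 5.7% of all genes (3.24% higher and 2.46% lower). In C59A against C59S, 6 of 67 were called, 5 higher and 1 lower, beside 5.91% of all genes (3.35% higher and 2.56% lower). These shares are near the background. With library totals alone in place of TMM scaling, the calls in C59A against WT over all genes were 216 higher and 863 lower, against 554 higher and 421 lower, and the members called were Dnajb3 and Hspa12a, both lower. None of the 4 calls of the TMM-scaled model remained, and of the 6 in C59A against C59S Dnajc22 alone did. The CPM of the groups did not overlap for 18 members in C59A against WT, 16 in C59S against WT and 18 in C59A against C59S, beside 24.6%, 22.5% and 29.3% of all genes. DESeq2 called 6 members in C59A against WT and 10 in C59A against C59S, beside 8.66% and 9.58% of all genes, and limma voom called 5 and 9, beside 6% and 10.4%. In C59S against WT no member and no gene was called by edgeR without a replicate block (0% of all genes), with 12 of 67 members and 18.1% of all genes at an unadjusted p under 0.05. A block on the replicate number in these 6 libraries called 3 members there and 3.82% of all genes. DESeq2 called 1 member there, Dnajb9, and 3.61% of all genes, and limma voom called none. Without WT replicate 3, edgeR called 2 members there, Dnajb9 and Hspb8, and 737 of all genes. The 3 comparisons share libraries, so their values are given side by side. The plot of fold changes by group shows each tested member in the 3 comparisons.

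**Figure D1:**
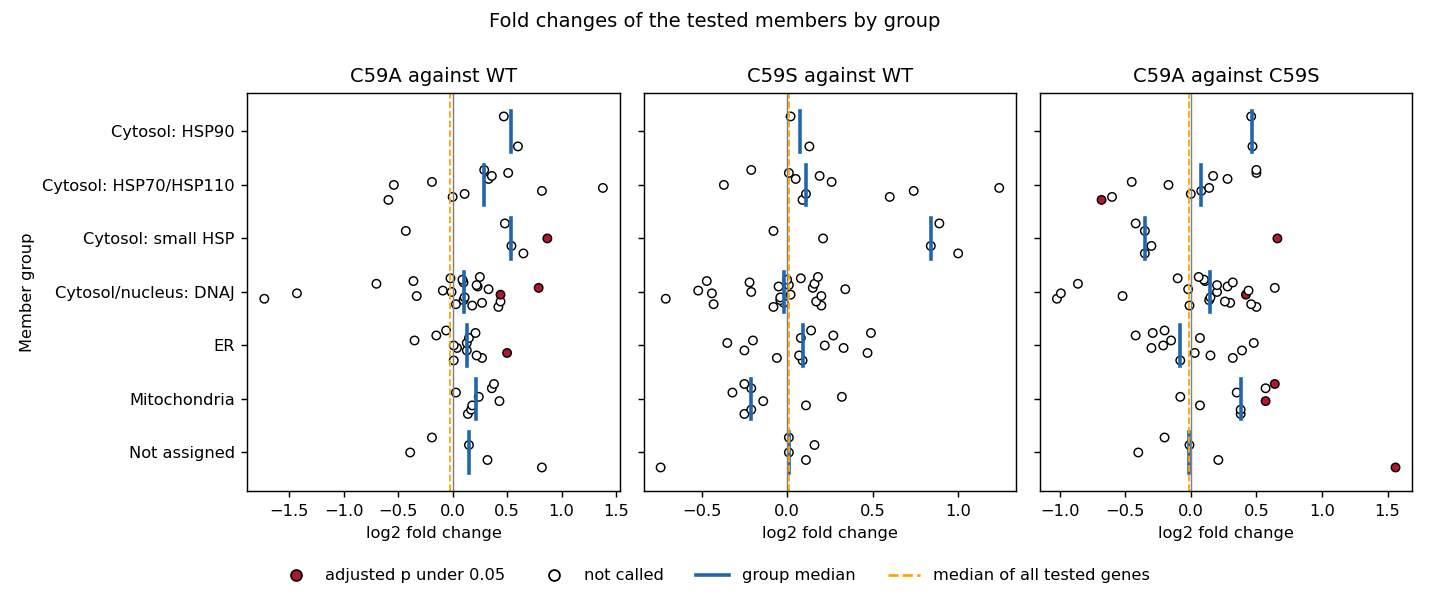
Log2 fold changes (x axis) of the 67 tested members by group (y axis) in C59A against WT, C59S against WT and C59A against C59S; filled points were called, blue bars are group medians and the dashed line is the median of all tested genes. The 4 calls in C59A against WT all lie right of 0, and in C59S against WT no point is filled.

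Over all tested members the median log2 fold change was 0.17 in C59A against WT, 0.05 in C59S against WT and 0.11 in C59A against C59S, beside -0.02, 0.01 and -0.01 over all tested genes. With library totals alone in place of TMM scaling, the member medians were -0.07, -0.16 and 0.08 and those of all genes -0.26, -0.19 and -0.05, so the signs of the first pair flip while the distance from the median of all genes stays at 0.19, 0.03 and 0.13. Directions in the text are those under TMM scaling, which stand relative to the bulk of genes.

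The constitutive cytosolic chaperones were the most abundant members. Hspa8, the constitutive HSP70, averaged 631 ± 237 FPKM in C59A, 445 ± 41.5 in C59S and 439 ± 80.2 in WT (SD, n = 3 each). Hspa8 had 3350, 1560 and 3290 CPM in C59A, 1890, 1790 and 2130 in C59S, and 1830, 1640 and 2310 in WT. C59A replicates 1 and 3 stood above every other library and C59A replicate 2 was the lowest of the 9, so the groups overlapped. By edgeR's quasi-likelihood test the log2 fold change was 0.51 ± 0.27 (SE) in C59A against WT, at a Benjamini-Hochberg adjusted p of 0.323. Hsp90ab1, the constitutive HSP90, had 1180, 580 and 994 CPM in C59A, 546, 664 and 798 in C59S, and 585, 638 and 761 in WT. Again C59A replicates 1 and 3 were the 2 highest libraries, and the edgeR quasi-likelihood log2 fold change against WT was 0.47 ± 0.25 at a Benjamini-Hochberg adjusted p of 0.309. The ratio of Hspa8 to Hsp90ab1 CPM ranged only between 2.57 and 3.46 over the 9 libraries.

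Hsp90aa1, the inducible HSP90, had 258, 155 and 188 CPM in C59A, 138, 135 and 159 in C59S, and 117, 132 and 147 in WT. Every C59A library was above every WT library, while C59S overlapped WT. The edgeR quasi-likelihood log2 fold change in C59A against WT was 0.6 ± 0.18 at a Benjamini-Hochberg adjusted p of 0.0785, and DESeq2 called it at 0.61 with an adjusted p of 0.0233. Of the 100-base stretches of Hsp90aa1 transcripts, 38% also occur in other annotated genes, mostly processed copies, as do 28.5% for Hspa8, so part of their counts depends on how shared reads were assigned.

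**Figure D2:**
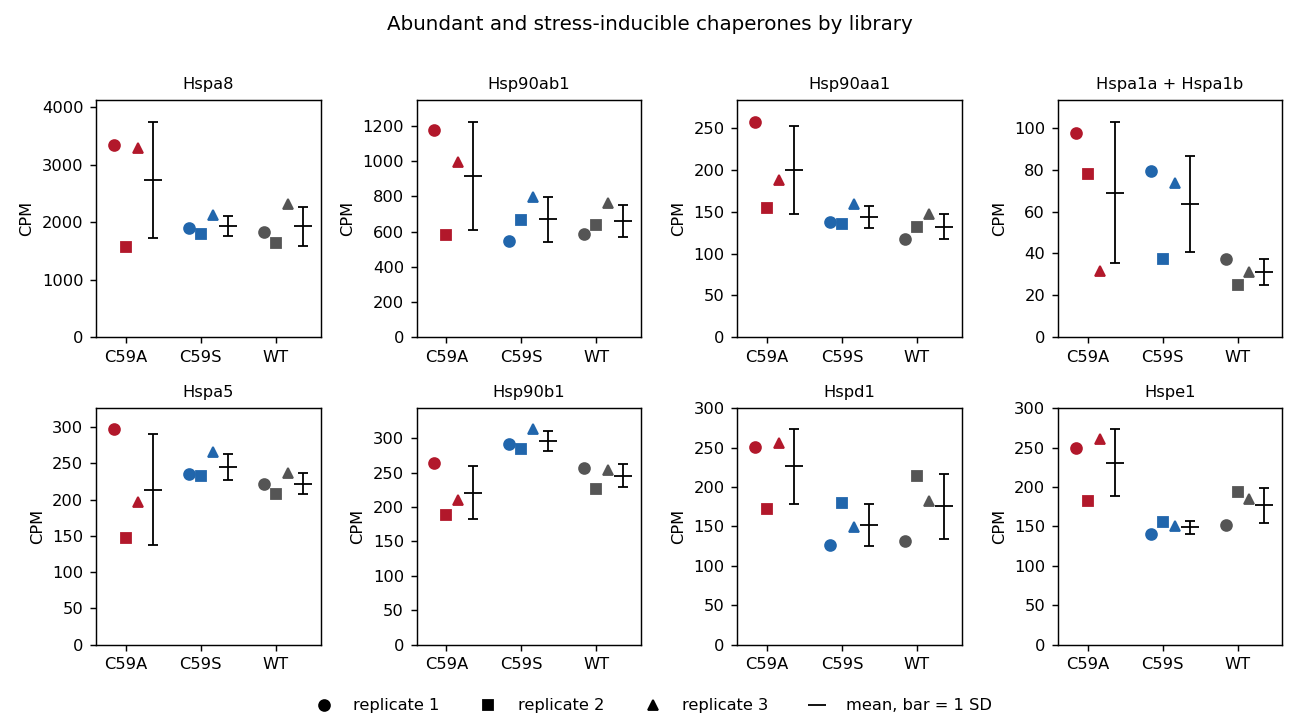
CPM (y axis) of abundant and stress-inducible chaperones in each C59A, C59S and WT library; symbols mark replicates and bars show the mean and 1 SD (n = 3). For Hspa8, C59A replicates 1 and 3 lie at 3350 and 3290 CPM and C59A replicate 2 at 1560, below all other libraries.

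The stress-inducible HSP70 genes Hspa1a and Hspa1b lie near each other on chromosome 17 (34969190 to 34972156 and 34956436 to 34959238, GRCm38, minus strand) and encode almost the same protein. Of their 100-base stretches, 56.5% for Hspa1a and 49.9% for Hspa1b occur in other genes, mostly in each other, so reads can be split between them and their sum is the safer value. Summed, they had 97.7, 77.8 and 31.7 CPM in C59A, 79.6, 37.5 and 73.8 in C59S, and 37.3, 24.7 and 31 in WT. In C59A 2 libraries were above all WT libraries and 1 was within their range, and the C59S libraries were all above WT, with the lowest just above the highest WT library. By edgeR's quasi-likelihood test, Hspa1b differed by 1.38 ± 0.51 in C59A against WT and 1.24 ± 0.51 in C59S against WT, with Benjamini-Hochberg adjusted p of 0.18 and 0.263. Hspa1a differed by 0.82 ± 0.34 and 0.74 ± 0.33, with edgeR quasi-likelihood Benjamini-Hochberg adjusted p of 0.203 and 0.282. No label states a pairing of libraries. Same-numbered C59S and WT libraries were taken as pairs from a check on the deviations in these same counts. The numbers are those of the titles, and the deposited column names number the libraries differently. By the column names no such pair shares a number. With a block on that number in these 6 libraries, edgeR's quasi-likelihood test called 3 members, beside the 3.82% given above. They were Hspa1b at 1.15, Hspa1a at 0.71 and Dnajc13, a J protein of endosomes, at -0.53. The edgeR quasi-likelihood Benjamini-Hochberg adjusted p were 0.0351, 0.0351 and 0.041. The block was chosen from the counts it then tests, so these p-values are not independent of that choice. The same block over all 9 libraries called 0 members and 0 genes in C59S against WT. The upstream 250 bases of Hspa1a and Hspa1b, printed because the pair is nearly identical here too, hold 1 match to the 2-unit heat shock element each (capitals). Hspa1a is at chr17:34972157-34972406 and Hspa1b at chr17:34959239-34959488, minus strand, GRCm38.p6.
Hspa1a: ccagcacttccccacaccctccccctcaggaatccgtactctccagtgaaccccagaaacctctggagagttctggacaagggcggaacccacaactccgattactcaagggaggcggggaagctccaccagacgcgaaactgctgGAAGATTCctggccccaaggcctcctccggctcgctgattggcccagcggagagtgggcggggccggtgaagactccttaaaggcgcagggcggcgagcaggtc
Hspa1b: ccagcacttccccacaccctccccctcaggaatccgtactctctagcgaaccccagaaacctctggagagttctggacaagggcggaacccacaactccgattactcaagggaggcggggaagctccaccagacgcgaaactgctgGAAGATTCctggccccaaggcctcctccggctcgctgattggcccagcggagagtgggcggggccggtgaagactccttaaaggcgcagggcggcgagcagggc

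The heat-inducible list held 12 members known to rise on heat shock, including Hspa8 and Hsp90ab1, which are also abundant without stress. The list was chosen with earlier results of these data known, so the counts of signs below are a description and not a test. These members (Hspa1a, Hspa1b, Dnajb1, Hsph1, Hsp90aa1, Hsp90ab1, Hspb1, Hspa8, Dnaja1, Hspa4l, Hspd1 and Hspe1) all had a positive log2 fold change in C59A against WT, beside 47.6% of all genes. Their median was 0.45 beside -0.02 for all genes, and none was called. Against WT, C59S had 7 of 12 positive, beside 51.1% of all genes, with a median of 0.01, and none was called. In C59A against C59S, 11 of 12 were positive, beside 49% of all genes, with a median of 0.47, and Hspe1 was called. With library totals alone these medians were 0.22, -0.21 and 0.46. The libraries of C59A differed among themselves: replicate 1 was above the mean of the 9 libraries for 12 of 12 genes, replicate 3 for 8 and replicate 2 for 4, and leaving out each library in turn gave medians between 0.3 and 0.67 in C59A against WT. The heat map orders members by compartment group, so the rows of these 12 genes are spread over several groups.

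**Figure D3:**
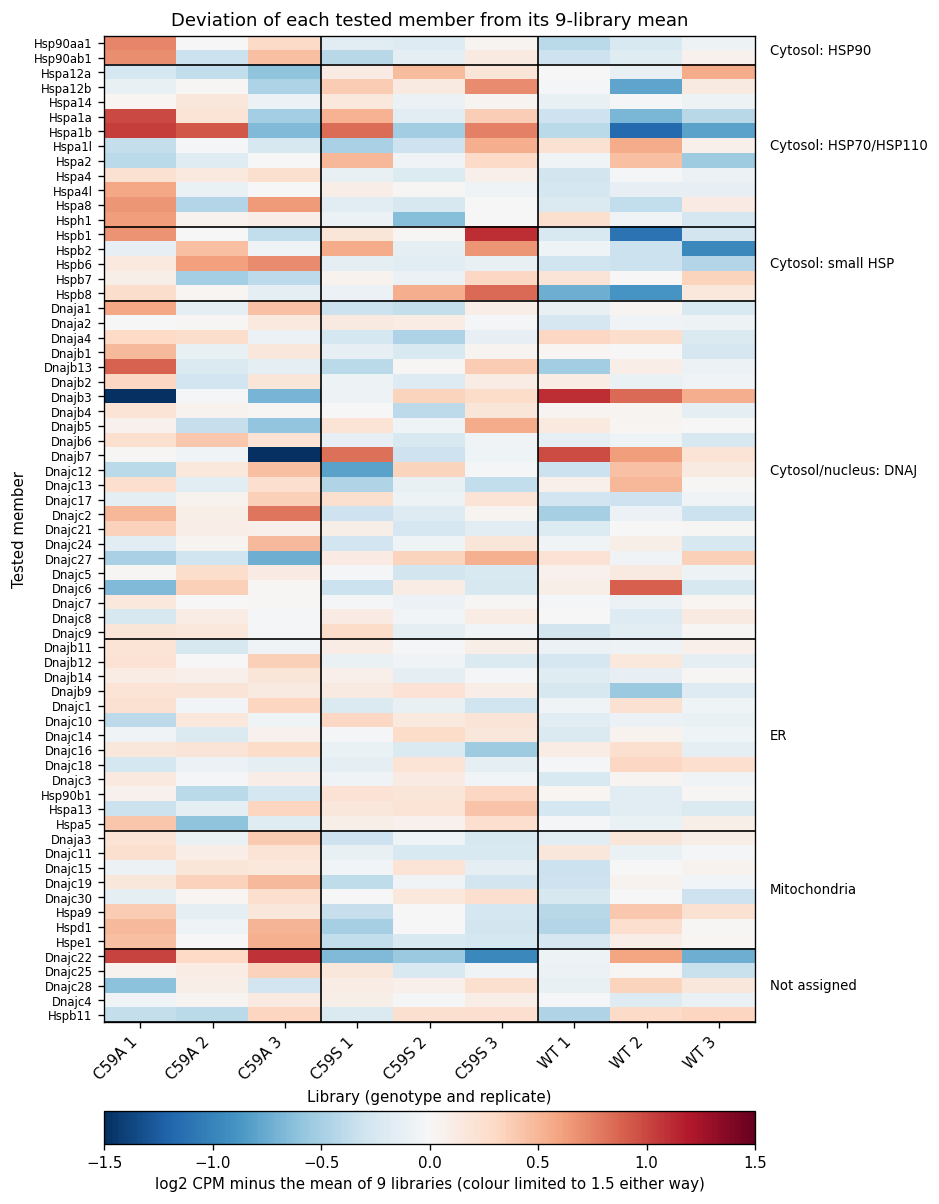
Log2 CPM minus the mean of the 9 libraries for each tested member (rows, by group) in each library (columns, C59A, C59S, WT), with colour limited to 1.5 either way. C59A replicate 1 is above the mean for 12 of 12 heat-inducible members and C59A replicate 2 for 4.

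Of the 5 small heat shock proteins among the tested members, Hspb6 was called in C59A against WT and in C59A against C59S. There, 5.7% and 5.91% of all genes were called. Hspb6 (HSP20), a small heat shock protein known from muscle and abundant there, had 10.8, 15 and 16 CPM in C59A, 8.84, 8.62 and 8.97 in C59S, and 7.92, 7.75 and 7.15 in WT. All C59A libraries were above all C59S libraries, which were above all WT libraries. Hspb6 (chromosome 7, 30552178 to 30555443) rose in C59A by 0.87 ± 0.17 against WT and by 0.66 ± 0.17 against C59S, where edgeR's quasi-likelihood test gave Benjamini-Hochberg adjusted p of 0.0122 and 0.044. Smooth muscle markers summed to 599, 384 and 368 CPM in C59A, 440, 628 and 1160 in C59S, and 493, 383 and 542 in WT. The adipocyte sums were 169, 162 and 274 CPM in C59A, 153, 641 and 1310 in C59S, and 63.8, 27.4 and 55.6 in WT. The part of these cell types in the Hspb6 values was not tested. Without C59A replicate 3 the edgeR quasi-likelihood Benjamini-Hochberg adjusted p was 0.0573 against WT, the only left-out library that ended this call. Against C59S, leaving out any library but C59A replicate 1 ended it, with edgeR quasi-likelihood Benjamini-Hochberg adjusted p of 0.0891 to 0.169.

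Of the other small heat shock proteins, Hspb1, Hspb8 and Hspb2 had positive fold changes in C59S against WT and none was called. Hspb1 (HSP27), which also binds actin filaments, had 76.1, 47.5 and 36.7 CPM in C59A, 53.8, 48.2 and 103 in C59S, and 40.6, 22 and 39.1 in WT. Of its 100-base stretches, 44% occur in other genes, so part of its counts depends on how shared reads were assigned. The edgeR quasi-likelihood log2 fold change of Hspb1 in C59S against WT was 1 ± 0.38 at a Benjamini-Hochberg adjusted p of 0.229. C59S replicate 3, the library with the highest endothelial, smooth muscle and adipocyte sums, was the highest. The part of those cell types in the Hspb1 values was not tested. Hspb8, a partner of the autophagy co-chaperone BAG3, had 10.6, 8.95 and 8.01 CPM in C59A, 8.25, 12.8 and 15.9 in C59S, and 5.27, 4.73 and 9.77 in WT, with 0.89 ± 0.3 in C59S against WT and an edgeR quasi-likelihood Benjamini-Hochberg adjusted p of 0.184. Hspb2 overlaps Cryab on the other strand, and without a stated strand setting its 0.763 to 2.56 CPM cannot be told apart from Cryab reads. Hspb7 was the exception, at -0.08 in C59S against WT.

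Of the cytosolic and nuclear DNAJ genes, 23 of 26 were tested and 2 (8.7%) were called in C59A against WT, beside 5.7% of all genes. Dnajb6, which holds back the aggregation of polyglutamine proteins and carries the 3-unit element printed above, had 48.3, 54.3 and 47.2 CPM in C59A, 37.6, 34.9 and 39.3 in C59S, and 36.9, 39.2 and 34.5 in WT. All C59A libraries were above all others, and C59S and WT overlapped. Dnajb6 (chromosome 5, 29735688 to 29818134) rose in C59A by 0.44 ± 0.11 against WT and by 0.42 ± 0.11 against C59S, where edgeR's quasi-likelihood test gave Benjamini-Hochberg adjusted p of 0.0399 and 0.0465. Without any 1 of the 6 libraries compared it was not called, with edgeR quasi-likelihood Benjamini-Hochberg adjusted p of 0.058 to 0.108 against WT and 0.0869 to 0.152 against C59S. With library totals alone the fold change against WT was 0.2, at an edgeR quasi-likelihood Benjamini-Hochberg adjusted p of 0.467. Of its 100-base stretches, 17.1% occur in other genes.

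Dnajc2 (zuotin), a ribosome-bound J protein that works with HSP70 on new chains, had 35, 26.3 and 43.2 CPM in C59A, 20, 21.6 and 25.6 in C59S, and 17.5, 23.3 and 19.7 in WT. The C59A libraries were above all others. Dnajc2 (chromosome 5, 21757267 to 21785251) rose by 0.79 ± 0.18 in C59A against WT at a Benjamini-Hochberg adjusted p of 0.0271 by edgeR's quasi-likelihood test, and against C59S it differed by 0.64 with an adjusted p of 0.0625. Leaving out C59A replicate 1 or 3, or WT replicate 1 or 3, ended the call against WT, with edgeR quasi-likelihood Benjamini-Hochberg adjusted p of 0.0667 to 0.112. Dnaja1, the main cytosolic J protein of type A, was highest in C59A replicates 1 and 3, with 270, 162 and 245 CPM in C59A, 144, 141 and 193 in C59S, and 166, 185 and 153 in WT, and the groups overlapped. For Dnaja1, 16.6% of the 100-base stretches occur in other genes. Dnajb3 had 0.121, 0.963 and 0.572 CPM in C59A against 2.23, 1.86 and 1.48 in WT. It lies within the Ugt1a locus on the opposite strand. There Ugt1a2 was at 0, 0 and 0.334 CPM in C59A and 32.8, 73.4 and 28.2 in WT. Dnajb3 shares no exon bases and 0% of its 100-base stretches with other annotated genes. Without a stated strand setting, unspliced reads of that locus cannot be told apart from Dnajb3 reads, and their part was not tested.

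In the ER group, 1 of 13 tested members (7.69%) was called in C59A against WT, beside 5.7% of all genes. None was called in C59A against C59S, beside 5.91%. Dnajb9 (ERdj4), a J protein of the ER that binds BiP and holds the sensor IRE1 in check, had 30, 29.9 and 28.7 CPM in C59A, 28.6, 30.2 and 27.9 in C59S, and 22, 17.7 and 22.7 in WT. All 6 knock-in libraries lay between 27.9 and 30.2 CPM, above all WT libraries. Dnajb9 (chromosome 12, 44205559 to 44210326) rose by 0.5 ± 0.12 in C59A against WT at a Benjamini-Hochberg adjusted p of 0.0317 by edgeR's quasi-likelihood test. In C59S against WT the difference was 0.47 ± 0.12 with an edgeR quasi-likelihood Benjamini-Hochberg adjusted p of 0.132, and DESeq2 called it there with an adjusted p of 0.0392. Leaving out any library but WT replicate 3 ended the C59A call, with edgeR quasi-likelihood Benjamini-Hochberg adjusted p of 0.0659 to 0.103. With library totals alone the fold change was 0.27, at an edgeR quasi-likelihood Benjamini-Hochberg adjusted p of 0.399.

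Of the other 12 ER members, 6 were positive in both knock-in lines against WT, and edgeR called none of the 12 in the 9-library model. Both comparisons share the WT libraries, and the share of all genes positive in both was not taken, so this count is a description. Hspa5 (BiP), the HSP70 of the ER, had 297, 147 and 197 CPM in C59A, 236, 233 and 266 in C59S, and 221, 208 and 237 in WT, so C59A held both the highest and the lowest library. Hsp90b1 (GRP94), the HSP90 of the ER, had 264, 189 and 210 CPM in C59A, 292, 285 and 313 in C59S, and 257, 226 and 254 in WT. Every C59S library was above all others, and the edgeR quasi-likelihood log2 fold change was -0.42 ± 0.15 in C59A against C59S at a Benjamini-Hochberg adjusted p of 0.118. Both carry the ER stress element printed above, as does Dnajc3, a J protein of the ER lumen, which differed by 0.15 ± 0.12 in C59A against WT and 0.08 ± 0.12 in C59S against WT. The ER medians were 0.13, 0.09 and -0.08 in C59A against WT, C59S against WT and C59A against C59S, and with library totals alone -0.11, -0.11 and -0.1.

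All 8 mitochondrial members had a positive log2 fold change in C59A against WT (median 0.21) and 7 of 8 in C59A against C59S (median 0.38), while 2 of 8 were positive in C59S against WT (median -0.21). Over all genes, 47.6%, 49% and 51.1% were positive in the same order. With library totals alone the medians of the mitochondrial members were -0.03, 0.34 and -0.4. Hspe1 (HSP10) had 249, 182 and 261 CPM in C59A, 140, 155 and 151 in C59S, and 152, 194 and 185 in WT. All C59A libraries were above all C59S libraries, and C59A replicate 2 lay within the WT range. Hspe1 (chromosome 1, 55088132 to 55091307) rose by 0.64 ± 0.16 in C59A against C59S at a Benjamini-Hochberg adjusted p of 0.0396 by edgeR's quasi-likelihood test.

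Dnajc19 (TIM14), part of the motor that pulls proteins into the mitochondrial matrix, had 66.1, 74.6 and 81.9 CPM in C59A, 45, 56.5 and 48.2 in C59S, and 47, 60.8 and 57 in WT. All C59A libraries were above all others. Dnajc19 (chromosome 3, 34056020 to 34081321) rose by 0.57 ± 0.14 in C59A against C59S at a Benjamini-Hochberg adjusted p of 0.0355 by edgeR's quasi-likelihood test. For Hspe1 and Dnajc19, 5 of 6 left-out libraries ended the call, with edgeR quasi-likelihood Benjamini-Hochberg adjusted p up to 0.142 and 0.133: for Hspe1 every library but C59A replicate 2 and for Dnajc19 every library but C59S replicate 2. Hspd1 (HSP60), the partner of Hspe1, had 251, 172 and 256 CPM in C59A, 127, 180 and 149 in C59S, and 132, 214 and 182 in WT, with groups that overlapped. For Hspd1, 23.9% of the 100-base stretches occur in other genes, and for Hspe1 11% do. Of the exon bases of Hspe1, 7.6% overlap Hspd1 on the other strand. The ratio of Hspd1 to Hspe1 CPM was 0.872 to 1.17 in all libraries. Hspa9 (mortalin), the HSP70 of the matrix, differed by 0.03 ± 0.21 in C59A against WT and 0.35 ± 0.21 in C59A against C59S.

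Dnajc22, a membrane J protein without an assigned compartment here, had the largest called fold change of the members. It had 61.5, 37.2 and 64.5 CPM in C59A, 19.1, 20.7 and 15.5 in C59S, and 28.7, 45.8 and 18.2 in WT. C59A was above C59S in every library, and WT spanned the gap. Dnajc22 (chromosome 15, 99093170 to 99104737) rose by 1.56 ± 0.33 in C59A against C59S at a Benjamini-Hochberg adjusted p of 0.0288 by edgeR's quasi-likelihood test, and leaving out any library but C59A replicate 2 ended the call with adjusted p of 0.0723 to 0.111.

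Hspa12a, a distant HSP70 relative, was the only member called lower in the 9-library edgeR model. It had 22.6, 21 and 18 CPM in C59A, 29.7, 38 and 31 in C59S, and 27.2, 25.3 and 40.1 in WT. All C59A libraries were below all others. Hspa12a (chromosome 19, 58795751 to 58860984) fell in C59A against C59S, with a log2 fold change of -0.68 ± 0.18 and a Benjamini-Hochberg adjusted p of 0.0493 by edgeR's quasi-likelihood test, and each left-out library ended the call, with adjusted p of 0.0628 to 0.176. Hspa12b, its endothelial relative, had 14.7, 16.1 and 11.5 CPM in C59A, 20.7, 17.5 and 26 in C59S, and 15.5, 9.15 and 17.5 in WT. The endothelial markers summed to 382, 410 and 336 CPM in C59A, 580, 578 and 801 in C59S, and 380, 210 and 510 in WT. Their part in the Hspa12b values was not tested.

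**Figure D4:**
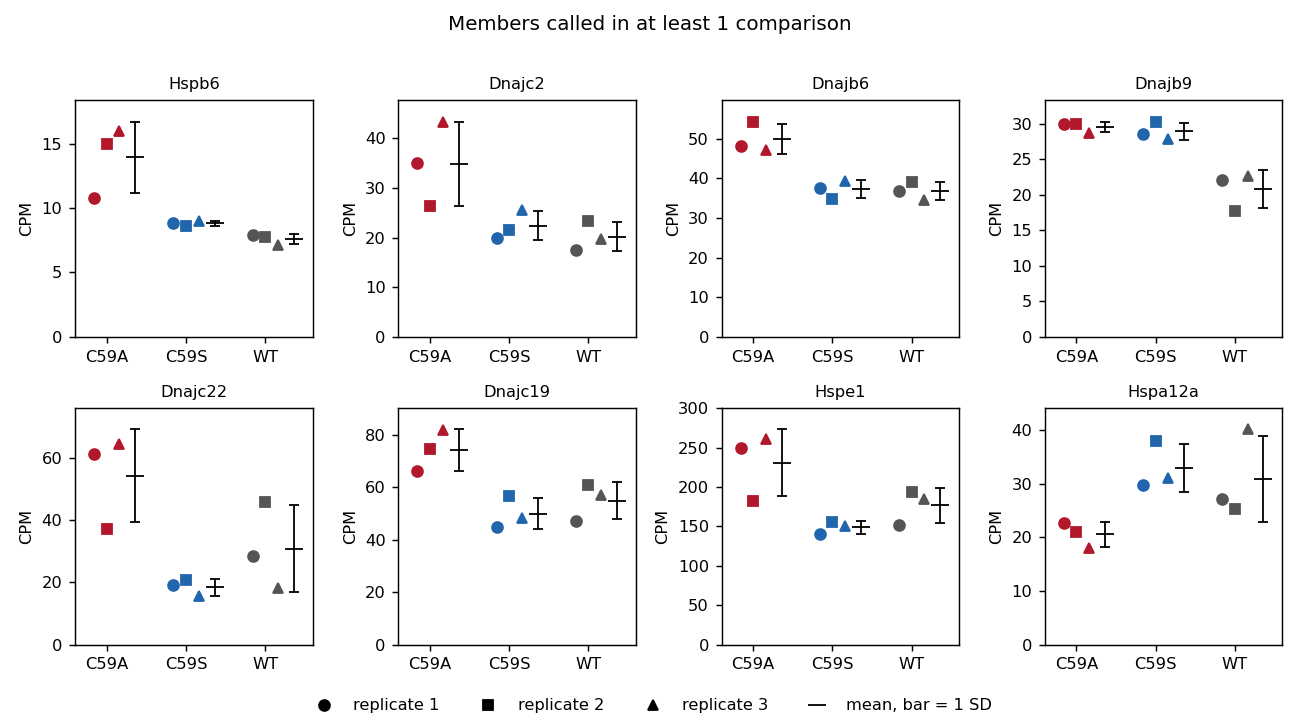
CPM (y axis) of the 8 members called in at least 1 comparison, in each C59A, C59S and WT library; symbols mark replicates and bars show the mean and 1 SD (n = 3). Dnajb9 lies between 27.9 and 30.2 CPM in all knock-in libraries and between 17.7 and 22.7 in WT, and Dnajc22 separates C59A from C59S while WT overlaps both.

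Co-chaperones and partner systems were read from lists of related genes. The cytosolic co-chaperone list (22 genes) also holds Hsf1, Hsf2 and Cryab, a small heat shock protein outside the symbol rule. Of these 22 genes, 1 was called in C59A against WT and the same count in C59A against C59S. That is 4.55% in each, beside 5.7% and 5.91% of all genes. The gene was Fkbp5 in both, an HSP90 co-chaperone of steroid receptors that glucocorticoids induce. Fkbp5 rose by 1.96 and 1.63, where edgeR's quasi-likelihood test gave Benjamini-Hochberg adjusted p of 0.00701 and 0.0178. Cryab averaged 160 CPM in C59A, 142 in C59S and 68.1 in WT. It differed by 1.23 ± 0.44 in C59A against WT and 1.06 ± 0.44 in C59S against WT. The edgeR quasi-likelihood Benjamini-Hochberg adjusted p were 0.158 and 0.258. Of 13 genes of the chaperonin TRiC and its partner prefoldin, 3 were called in C59A against WT. There, 3.24% of all genes were called higher. The 3 were prefoldin subunits: Pfdn2 rose by 0.81, Pfdn4 by 0.58 and Pfdn1 by 0.5. The edgeR quasi-likelihood Benjamini-Hochberg adjusted p were 0.00634, 0.0264 and 0.0492. All 13 genes were positive in C59A against WT, beside 47.6% of all genes, with a median of 0.26. Pfdn2 also rose by 0.56 ± 0.14 in C59A against C59S, where edgeR's quasi-likelihood test gave a Benjamini-Hochberg adjusted p of 0.0397 beside 5.91% of all genes called. Of 23 other ER folding and unfolded protein response genes none was called in C59A against WT, with 4 at an unadjusted p under 0.05 beside 21% of all genes, and Edem1, which sends misfolded glycoproteins to degradation, rose by 0.66 in C59A against C59S. Of 14 mitochondrial folding and protease genes, 2 (14.3%) were called in C59A against C59S, beside 5.91% of all genes. Grpel2, a nucleotide exchange factor of the matrix HSP70, rose by 0.69, and Clpx, the unfoldase of a matrix protease, rose by 0.61. None of these lists had a call in C59S against WT by edgeR. Other scalings, other tools and left-out libraries are given here for members only, so the stability of the calls in these lists was not examined.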

How the data were processed

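RNA-seq libraries of mouse kidney were analysed: 3 of C59A, 3 of C59S and 3 of WT, grouped by the labels' genotype. Per the labels' protocols, total RNA was isolated with TRIzol and libraries were made with a NEBNext Ultra RNA kit. The authors deposited raw read counts per gene and FPKM values. The submitters' processing notes give the build as GRCm38 and the tools as DESeq2 1.20.0, HISAT2 2.0.5, fastp, CASAVA 1.8 and, for counting, featureCounts 1.5.0-p3. Whether counting used strand, which annotation release it used and what became of multi-mapping reads are not given in the sources used here.

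From the deposited counts, edgeR 4.0.16 (R 4.3.3) fitted 1 quasi-likelihood model to the 9 libraries with TMM scaling, its default filter on low counts and robust dispersion, and p-values were adjusted over all 17114 tested genes by the Benjamini-Hochberg method. CPM is the count per 1e6 of the TMM-scaled library size. FPKM as deposited was used for levels between genes. Members, groups and lists of related genes were chosen with earlier results of these data known. Genes were named where called, among the 10 smallest p-values of a comparison, among the most abundant of a group, or in the heat-inducible, ER or mitochondrial groups. Every column of the tables was used, and 0 were set aside. Libraries of a group differed by more than sampling noise (chi-square per degree of freedom 22.3 to 123), so none was treated as a duplicate.

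Titles give the same replicate numbers in each genotype. Deviations from group means of same-numbered libraries correlated at 0.32, 0.2 and 0.26 between C59S and WT, every pair over 0.1, which was taken as pairing. Between C59A and WT they correlated at 0.01, -0.09 and 0.05, and between C59A and C59S at -0.09, -0.29 and 0.05, which was not. Unlike-numbered libraries of C59S and WT correlated at -0.25 to 0.01. The deposited column names number the libraries differently, and no same-titled C59S and WT libraries share a column number. C59S replicate 2 and WT replicate 3 do share a column number, and they correlated at 0.01. Some unlike-numbered pairs of C59A and C59S were higher. C59A replicate 2 with C59S replicate 1 reached 0.29, and C59A replicate 3 with C59S replicate 2 reached 0.25. The labels state no pairing. Alternatives were other scalings and filters, DESeq2 1.42.0, limma 3.58.1 (voom, and log2 FPKM with a pseudocount of 1 or 0.1, for genes averaging 0.5 or more), a replicate block, only 2 genotypes, fewer genes, and each library left out. The scripts were tested on simulated data.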

Additional observations from a re-analysis of the deposited data

How the results depend on the processing

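Of the 135 fold changes of named members, 46 changed sign under at least 1 alternative, and 0 of these 46 were called. Most did so with library totals alone, which lower the median of all genes to -0.26, -0.19 and -0.05 in C59A against WT, C59S against WT and C59A against C59S. In C59A against WT, 16 members changed sign under that setting: Hspa9 -0.19, Dnajc3 -0.08, Dnaja3 -0.1, Dnajc11 -0.07, Dnajb11 -0.22, Dnajc15 -0.06, Dnajc14 -0.22, Dnajc10 -0.21, Dnajb14 -0.02, Dnajc1 -0.1, Dnajc30 0, Dnajc16 -0.11, Hspa13 -0.04, Dnaja2 -0.05, Dnajc7 -0.14 and Dnajc4 -0.09. In C59S against WT, 14 did: Dnajb6 -0.19, Dnajc2 -0.06, Hspa12a -0.1, Hspa8 -0.21, Hsp90ab1 -0.2, Hsp90aa1 -0.08, Hspa5 -0.07, Dnajc3 -0.11, Dnajb11 -0.11, Dnajc15 -0.08, Dnajb14 -0.13, Hspa4 -0.16, Dnajc4 -0.04 and Hspb11 -0.19. In C59A against C59S, Dnajb9 was at -0.01. Other settings moved values near 0 across it: in C59A against WT, voom gave Hspa5 0.08 and Dnajc10 -0.07, and upper quartile factors gave Dnajb11 and Dnajc14 -0.01. Between C59S and WT, protein-coding genes alone gave Dnajb6, Hspa8 and Hspb11 -0.01 and Hsp90ab1 0, the 2 genotypes alone gave Hspa8 -0.01, and voom and the 3 FPKM fits gave Dnajc7 0.01. In C59A against C59S, the FPKM fits gave Hspa1a -0.01, -0.02 and -0.01.

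Leaving out 1 library at a time changed the sign of 6 members in C59A against WT: Hspa9 ranged from -0.18 to 0.2, Hspa5 from -0.36 to 0.16, Dnajb11 from -0.1 to 0.11, Dnajc14 from -0.05 to 0.08, Dnajc10 from -0.1 to 0.17 and Hspa13 from 0 to 0.34. In C59S against WT 11 did: Dnajb6 -0.03 to 0.06, Hspa12a -0.03 to 0.33, Hspa8 -0.1 to 0.16, Hsp90ab1 -0.13 to 0.15, Dnaja1 -0.23 to 0.01, Dnajb1 -0.1 to 0.04, Dnajb12 -0.14 to 0.07, Dnajc7 -0.03 to 0.03, Hspa4 -0.03 to 0.11, Hspb7 -0.19 to 0.01 and Hspb11 -0.21 to 0.15. In C59A against C59S 9 did: Hspb1 -0.69 to 0.06, Hspa1b -0.19 to 0.51, Hspa1a -0.38 to 0.37, Hspa4l -0.06 to 0.3, Hspa5 -0.5 to 0.01, Dnajb11 -0.19 to 0.02, Dnajc30 -0.19 to 0.02, Dnaja2 -0.06 to 0.02 and Dnajc4 -0.07 to 0.04.

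In C59A against WT the members called were 2 others, Dnajb3 and Hspa12a, both lower, with library totals alone, where the 4 calls were lost with edgeR quasi-likelihood Benjamini-Hochberg adjusted p of 0.467 for Dnajb6, 0.0932 for Dnajc2, 0.399 for Dnajb9 and 0.0855 for Hspb6. The count of called members was 1 with FPKM and no filter, 2 with only these genotypes and 1 to 4 with a library left out, and that of all genes was 1552 by DESeq2, 410 with FPKM and no filter and 502 to 852 with a library left out. For C59S against WT, DESeq2 called 1 member and 626 genes, no filter gave 308 genes and library totals 20, and a left-out library gave 0 to 2 members and 0 to 737 genes, the highest without WT replicate 3 (33 without C59S replicate 1, 1 without C59S replicate 2). In C59A against C59S the count of members was 1 with library totals, 10 by DESeq2, 1 and 1 with filtered FPKM, 0 with unfiltered FPKM and 0 to 4 with a library left out. All genes called there were 670, 1717 by DESeq2, 1773 by voom, 657, 670 and 278 with FPKM, and 318 to 1006 with a library left out. The median of all members moved to -0.07 and -0.16 with library totals in the comparisons with WT, and lay between 0.14 and 0.22, -0.01 and 0.1, and 0.04 and 0.13 with a library left out.

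With the replicate block in the 2 genotypes compared, 0 members and 390 genes were called in C59A against WT, 3 members and 638 genes in C59S against WT, and 1 member and 334 genes in C59A against C59S, and 1 member in C59A against C59S with the block over 9 libraries, which called 0 members and 0 genes in C59S against WT. The block put Hsp90ab1 at 0 in C59S against WT and Hspa1a at -0.01 in C59A against C59S. Numbers do not pair C59A with the other genotypes. Of 21 alternatives, 13 ended the call of Dnajb6 in C59A against WT, 9 that of Dnajc2, 9 that of Dnajb9 and 3 that of Hspb6, and 8 (Dnajc22) to 15 (Dnajb6) ended the calls in C59A against C59S. The cause of these changes was not tested. With 3 libraries a group, members of few counts such as Dnajb7 and Dnajb3 have wide errors.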
